A study of Mus musculus with 24 samples.

Results

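The data are transcript levels of 10 genes of the ATF4 pathway and the integrated stress response in mouse preimplantation embryos. The genes are Atf4, Atf3, Atf5, Ddit3, Ddit4, Trib3, Asns, Chac1, Psat1 and Phgdh, picked by symbol from 55471 gene identifiers in the count tables. The embryos were B6D2F1 zygotes collected after superovulation and mating within that hybrid. Ttf1 KO and Zfp622 KO embryos had received Cas9 protein with 3 different guide RNAs by injection into the zygote cytoplasm, and WT embryos were the controls. All were cultured to the late 2-cell stage (L2C) or to the morula, and each library was made from polyadenylated RNA of 10 pooled embryos, with 4 libraries in each of the 6 groups of genotype and stage. The titles call the WT libraries NC, and whether those embryos were injected is not given in the sources used here. Zygote injection leaves embryos that may be mosaic, and a library reads the average of its pool. Ttf1 encodes a factor that terminates transcription by RNA polymerase I on ribosomal DNA, and Zfp622 encodes a factor of late maturation of the large ribosomal subunit.

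In the integrated stress response, kinases that sense different stresses phosphorylate the initiation factor eIF2, which lowers protein synthesis in general while the Atf4 mRNA is translated better. The ATF4 protein then binds, often with C/EBP partners, to a C/EBP-ATF response element (CARE) near genes for amino acid synthesis and uptake, for other stress factors and for feedback on the response. Much of the control of ATF4 lies in translation, so the level of Atf4 mRNA does not report the level or activity of the protein, and no phosphorylated eIF2 or protein was measured.

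The RefSeq promoter windows of the members, on GRCm38.p6 and running from 250 bases before to 50 bases after an annotated start, were searched on both strands for the letters TGATGNAA, the core of a CARE. All 10 members had at least 1 window, 12 windows in all. Of these 12 windows 4, each of a different member, held the core, against 3.97% of all 32851 windows of that length. These are the 4 windows, 5′ to 3′ along the gene's strand, with the matched letters in capitals, and they are shown because they let a reader set the element beside the values of the same genes.
Atf3, chr1:191183284-191183583, minus strand: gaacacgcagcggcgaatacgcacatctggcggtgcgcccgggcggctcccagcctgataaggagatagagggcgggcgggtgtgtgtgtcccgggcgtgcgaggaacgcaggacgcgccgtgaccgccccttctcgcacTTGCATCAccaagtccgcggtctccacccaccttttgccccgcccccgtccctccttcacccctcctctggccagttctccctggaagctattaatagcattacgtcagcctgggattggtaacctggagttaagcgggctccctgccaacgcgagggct
Trib3, chr2:152344011-152344310, minus strand: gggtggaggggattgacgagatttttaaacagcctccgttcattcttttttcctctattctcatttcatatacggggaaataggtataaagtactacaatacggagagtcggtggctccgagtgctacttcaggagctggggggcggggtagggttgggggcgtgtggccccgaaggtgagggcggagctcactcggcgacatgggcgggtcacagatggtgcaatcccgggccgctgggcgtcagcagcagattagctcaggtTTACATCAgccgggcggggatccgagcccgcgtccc
Asns, chr6:7693160-7693459, minus strand: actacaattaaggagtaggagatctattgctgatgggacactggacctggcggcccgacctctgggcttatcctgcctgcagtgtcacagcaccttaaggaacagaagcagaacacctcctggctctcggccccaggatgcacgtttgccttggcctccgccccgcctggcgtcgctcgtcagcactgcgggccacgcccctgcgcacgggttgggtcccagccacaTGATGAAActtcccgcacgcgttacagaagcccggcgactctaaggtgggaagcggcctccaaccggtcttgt
Chac1, chr2:119350992-119351291, plus strand: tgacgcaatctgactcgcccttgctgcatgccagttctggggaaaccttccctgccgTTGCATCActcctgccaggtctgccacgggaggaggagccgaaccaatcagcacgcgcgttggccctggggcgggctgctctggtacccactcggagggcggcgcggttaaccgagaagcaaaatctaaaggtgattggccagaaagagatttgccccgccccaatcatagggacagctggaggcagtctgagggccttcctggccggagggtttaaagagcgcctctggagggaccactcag
The match began 110 bases before the start in Atf3, 193 bases before it in Chac1 and 23 bases before it in Asns, and at base 15 from the start in Trib3. It read TTGCATCA in Atf3 and in Chac1, TTACATCA in Trib3 and TGATGAAA in Asns. These 4 genes did not move as a block in the values that follow. The other 6 members, Atf4 among them, held no match in their windows, which says only that these letters are not in that stretch.

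Total counts ran from 10538723 to 17807596 per library. The targeted transcripts checked the labels: Ttf1 averaged 30.9 ± 1.65 CPM (counts scaled to library size) in Ttf1 KO morulae and 52.9 ± 1.5 CPM in WT morulae, and Zfp622 averaged 18.4 ± 7.48 CPM in Zfp622 KO morulae and 63.9 ± 6.21 CPM in WT morulae (SD, n = 4 each). Summed transcripts of the morula marker list were at 620.4 to 836.2 CPM in Ttf1 KO morulae, 654.2 to 1127.7 CPM in Zfp622 KO morulae and 1392.8 to 1487.3 CPM in WT morulae. Those of the late 2-cell marker list summed to 621.2 to 635.8, 609.3 to 667.5 and 695.7 to 783.5 CPM in the same groups. Of its 9 markers 8 were over 1 CPM in each knockout and 6 in WT morulae. Markers of cumulus and granulosa cells summed to at most 4.21 CPM and those of sperm and spermatids to at most 3.03 CPM in any morula library. In L2C libraries these sums were higher, at most 9.08 CPM and 7.18 CPM. Per the file headers all Ttf1 KO libraries carry lane 1, and all Zfp622 KO and WT libraries lane 2, so lane and Ttf1 genotype cannot be told apart. WT L2C library 4 and WT morula libraries 3 and 4 carry a further index number in the file headers, and results are given without them where that matters.

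Between the stages of WT embryos members were called in both directions, as genes at large were. The enzymes Phgdh, Asns and Psat1 were higher in morulae, while Chac1, Trib3, Ddit4, Ddit3 and Atf4 were lower (edgeR's quasi-likelihood test, Benjamini-Hochberg adjusted p of at most 0.05). That is 8 of the 10 members called, 3 higher and 5 lower, where 84% of 18864 genes tested were called, 37.9% higher and 46.1% lower. The share of members called is near that of all genes. Chac1, 1 of the 5 lower, was at 3 to 7 counts in WT morulae and passed the filter on low counts through L2C libraries. The median log2 fold change of the members was -0.94, against -0.30 over all genes. As embryos were pooled whole, fewer cells with a transcript and less RNA per cell cannot be told apart.

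Phgdh, the first enzyme of serine synthesis from a glycolytic intermediate, was at 351.5, 401.2, 591.7 and 453.5 CPM in WT morulae, against 20.9, 18.4, 20.3 and 19.6 CPM in WT L2C embryos. The fold was 22.7 (log2 fold change 4.50, SE 0.266, adjusted p = 1.47e-12). Psat1, the next enzyme of that route, was 6.46-fold higher in WT morulae, and Asns, which makes asparagine, was 8.37-fold higher. For these 3 enzymes every WT morula library lay above every WT L2C library, as it did for 36.2% of all genes. Chac1, an enzyme that degrades glutathione, averaged 0.394 ± 0.133 CPM in WT morulae and 4.42 ± 1.10 CPM in WT L2C embryos (SD, n = 4 each), a log2 fold change of -3.47 (SE 0.414, adjusted p = 7.84e-09). Trib3, a pseudokinase that ATF4 induces and that feeds back on it, fell by 2.18 on the log2 scale. Ddit4, an inhibitor of mTORC1 signalling also called REDD1, fell by 1.39 and Ddit3, which encodes the stress transcription factor CHOP, fell by 1.15. Atf4 itself was at 174.1, 179.6, 209.5 and 194.6 CPM in WT morulae, against 340.4, 284.6, 294.8 and 334.0 CPM in WT L2C embryos (log2 fold change -0.73, SE 0.107, adjusted p = 3.53e-07). Atf3 and Atf5, transcription factors of the same bZIP class, had log2 fold changes of -1.34 and -0.38 that did not pass the test (adjusted p = 0.142 and 0.525). With total counts in place of scaled library sizes the median over all genes moved by -0.575 and without a filter on low counts by 0.298, and the 8 members called were called in the same direction both times.

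Per length of the annotated exons, and on a scale of CPM divided by exon length in kilobases (RPKM), the order of the members turned over between the stages. Psat1 was first in WT morulae at 466.1 ± 17 RPKM, followed by Phgdh at 180.8 ± 41.7 RPKM and Atf4 at 80.3 ± 6.76 RPKM (SD, n = 4 each). In WT L2C embryos Atf4 was first at 132.9 ± 11.8 RPKM, followed by Psat1 at 72.0 ± 5.37 RPKM and Trib3 at 21.6 ± 2.46 RPKM. Trib3 and Ddit3, at 4.78 ± 0.392 and 4.09 ± 0.795 RPKM in WT morulae, were neighbours whose levels differed by less than their spread. Atf3 and Atf5 were lowest at L2C, at 0.189 ± 0.0992 and 0.215 ± 0.0703 RPKM in WT embryos, and these 2 did not differ beyond their spread either. At the low end in Ttf1 KO morulae stood Chac1 at 0.187 RPKM, and in Zfp622 KO morulae also Chac1, at 0.234 RPKM.

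**Figure D1:**
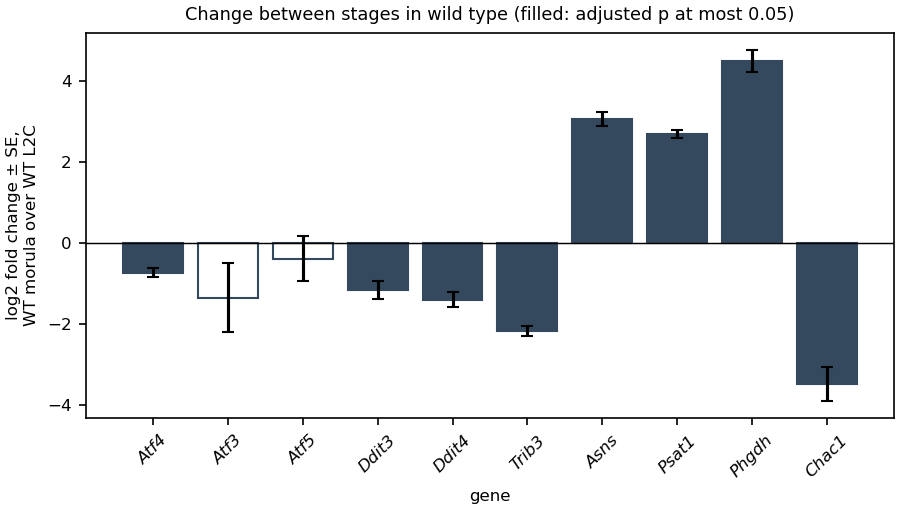
Log2 fold change of each member in WT morulae over WT L2C embryos (bars, with SE from the edgeR fit of 24 libraries), filled where the adjusted p was at most 0.05. Asns, Psat1 and Phgdh stand at 3.07, 2.69 and 4.50, and the other 7 members lie below 0.

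In Ttf1 KO morulae, Ddit4, Atf4, Asns and Atf3 were higher than in WT morulae, and Trib3, Phgdh and Psat1 were lower. Thus 7 of the 8 members tested were called (4 higher, 3 lower), where 39.2% of 14865 genes were called, 21.3% higher and 17.9% lower. Their median log2 fold change was 0.44, against 0.04 over all genes. Atf5 and Chac1 did not pass the filter on low counts, and Atf3 passed it through the knockout libraries, so the 8 are not the whole group. Without Atf3, 6 of 7 were called (3 higher, 3 lower) and the median was 0.41.

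Ddit4 (chr10:59949669-59951834, minus strand) had the smallest p of the members. It was at 13.6, 15.1, 13.0 and 9.16 CPM in Ttf1 KO morulae, against 3.59, 4.13, 4.54 and 3.28 CPM in WT morulae. Every knockout library lay above every WT library, as for 18.8% of all genes, while 17.6% lay wholly below. The 3.28-fold difference (log2 fold change 1.71, SE 0.185, adjusted p = 7e-06) was called under each alternative. Atf4 (chr15:80255184-80257541, plus strand) was at 300.7, 307.4, 287.9 and 269.9 CPM in Ttf1 KO morulae, against 174.1, 179.6, 209.5 and 194.6 CPM in WT morulae. The groups did not overlap, and the log2 fold change was 0.63 (SE 0.116, 1.55-fold, adjusted p = 0.000578). It was called with each single library left out and also without the WT libraries of a further index number, where it was 0.71 (adjusted p = 0.0052).

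Atf3 (chr1:191170296-191218039, minus strand), whose protein is induced by many stresses, was at 47, 48, 21 and 1 counts in the Ttf1 KO morula libraries, against 4, 2, 1 and 1 counts in the WT morula libraries. These are 3.73, 4.15, 1.71 and 0.0789 CPM against 0.334, 0.165, 0.0710 and 0.0763 CPM. In 3 of 4 knockout libraries Atf3 was above every WT library, and in library 4 it was at the WT level. The log2 fold change was 3.86 (SE 0.928, adjusted p = 0.0056), and 4.24 without knockout library 4 (adjusted p = 9.95e-05). Without the WT libraries of a further index number it was 3.20 and was not called (adjusted p = 0.0899).

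Asns (chr6:7675169-7693254, minus strand) was at 43.8, 61.8, 36.9 and 51.1 CPM in Ttf1 KO morulae, against 38.0, 35.5, 32.5 and 33.7 CPM in WT morulae. The groups overlapped through knockout library 3. The log2 fold change was 0.48 (SE 0.139, adjusted p = 0.0116), and the call was lost without WT library 3 (0.41, adjusted p = 0.0513), without knockout library 2 (0.32, adjusted p = 0.063) and without the WT libraries of a further index number (0.39, adjusted p = 0.139).

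Trib3 (chr2:152337422-152344032, minus strand) moved the other way. It was at 6.98, 7.70, 6.5 and 6.31 CPM in Ttf1 KO morulae, against 11, 9.17, 10.7 and 9.76 CPM in WT morulae, with no overlap. The log2 fold change was -0.55 (SE 0.147, adjusted p = 0.00686) and was called with each library left out and, narrowly, without the WT libraries of a further index number (-0.56, adjusted p = 0.0481).

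Both serine enzymes were lower in Ttf1 KO morulae. Phgdh (chr3:98313170-98339990, minus strand) was at 249.2, 233.6, 357.7 and 286.4 CPM in the knockout, against 351.5, 401.2, 591.7 and 453.5 CPM in WT, and the groups overlapped at knockout library 3. Its log2 fold change was -0.66 (SE 0.204, adjusted p = 0.0242), and the call was lost without WT library 3 (-0.54, adjusted p = 0.0531), without knockout library 1 (-0.60, adjusted p = 0.0686) and without knockout library 2 (-0.60, adjusted p = 0.0632), also without a filter on low counts (-0.70, adjusted p = 0.0627) and without the WT libraries of a further index number (-0.43, adjusted p = 0.183). Psat1 (chr19:15904678-15947337, minus strand) was at 1482.5, 1769.8, 1779.4 and 1760.8 CPM in Ttf1 KO morulae, against 1941.8, 1939.6, 2090.7 and 1958.5 CPM in WT morulae. The groups did not overlap, but the log2 fold change of -0.21 (SE 0.0721, adjusted p = 0.0265) was lost without knockout library 1, the lowest (-0.14, adjusted p = 0.068), with all 24 libraries in the fit (-0.22, adjusted p = 0.07) and without the WT libraries of a further index number (-0.20, adjusted p = 0.141). A named pseudogene, Phgdh-ps1, is annotated for Phgdh. Reads that map to several places were not counted.

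Ddit3 (chr10:127290774-127296288, plus strand) was at 9.75, 11.9, 8.86 and 6.63 CPM in Ttf1 KO morulae, against 6.94, 5.78, 6.39 and 8.92 CPM in WT morulae. The groups overlapped and the log2 fold change of 0.41 did not pass (95% interval -0.05 to 0.87, adjusted p = 0.147). The exons of Ddit3 share 186 bases, 10.858% of their length, with Gm4189, with Mars and with another identifier of the same symbol, and reads there were not assigned, as counting used no strand. Atf5 was at 9, 13, 21 and 7 counts in Ttf1 KO morulae, against 4, 4, 7 and 2 counts in WT morulae. It was not tested with the filter; without a filter its log2 fold change was 1.58 (adjusted p = 0.0262). Exons of Atf5 share 82 bases (4.114%) with Nup62 and Il4i1, where reads were not assigned. Chac1 was at 1 to 6 counts in Ttf1 KO morulae and 3 to 7 counts in WT morulae, too low to compare at this depth.

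**Figure D2:**
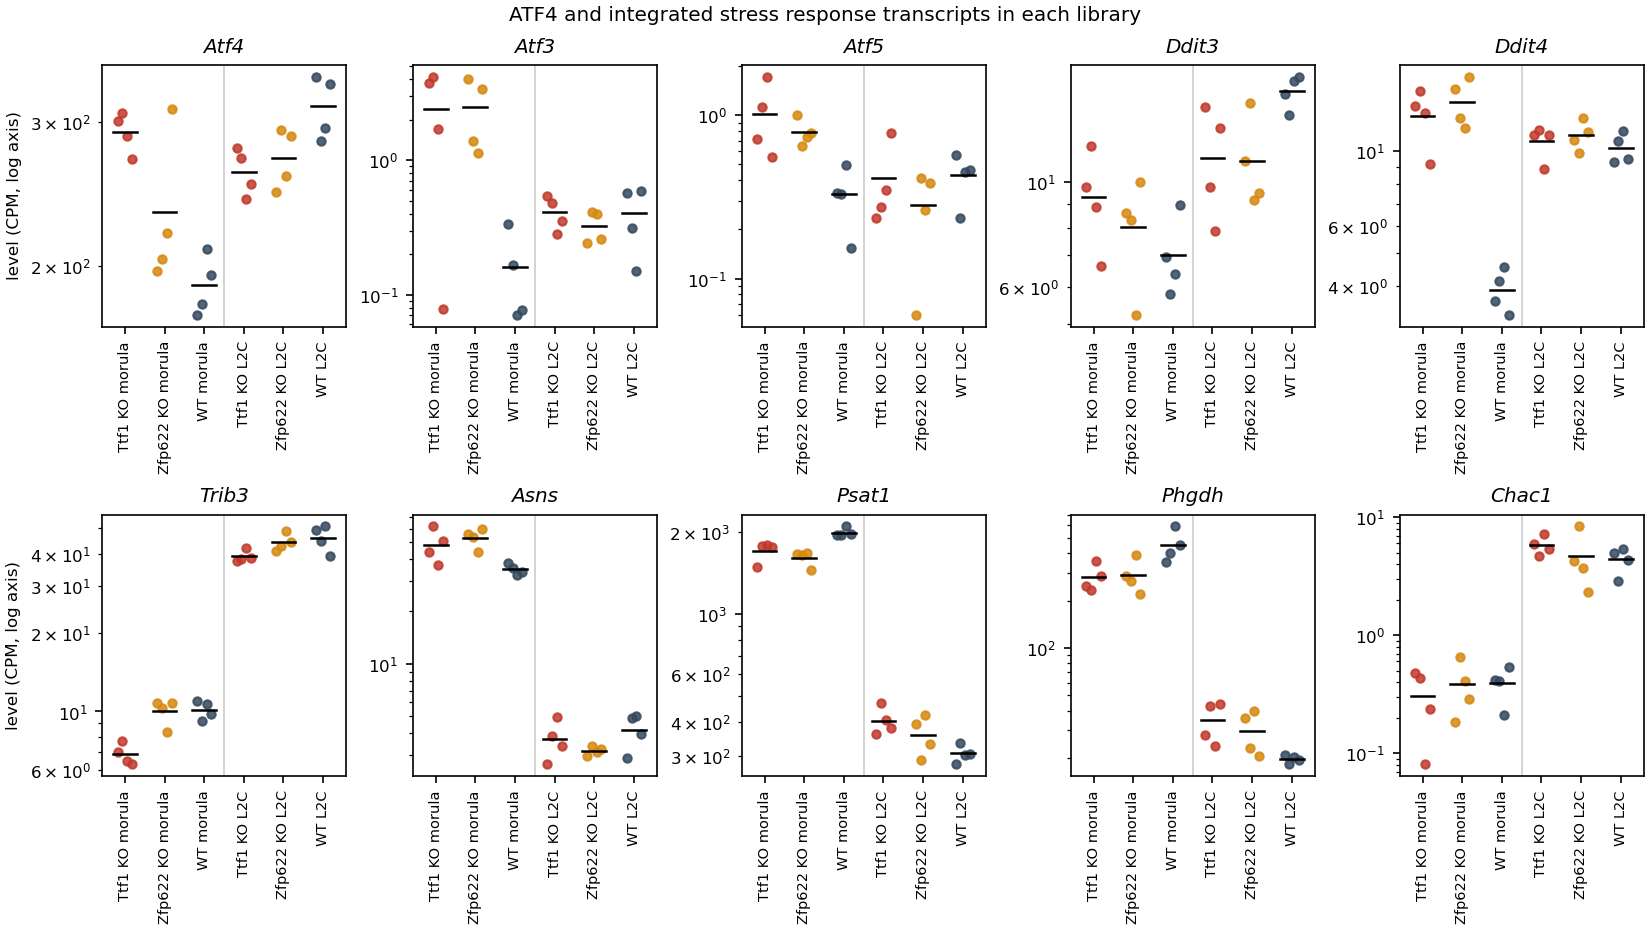
Level of each member in each library (points, CPM on a log axis) with the group mean (line), morulae on the left of each panel and L2C embryos on the right. In morulae the Ddit4 points of Ttf1 KO (9.16 to 15.1 CPM) and Zfp622 KO (11.7 to 16.6 CPM) lie above all WT points (3.28 to 4.54 CPM).

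Zfp622 KO morulae had higher Ddit4, Asns and Atf3 and lower Psat1 and Phgdh than WT morulae. Here 5 of the 8 members tested were called (3 higher, 2 lower), where 29.1% of 14865 genes were called, 15.6% higher and 13.5% lower, and the median log2 fold change was 0.26, against 0.03 over all genes. Atf3 passed the filter on low counts through knockout libraries here too, and without it 4 of 7 were called (2 higher, 2 lower) with a median of 0.20. The same 4 WT morula libraries serve both knockouts, so likeness between the comparisons includes what these libraries share.

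Ddit4 was at 15.3, 12.6, 11.7 and 16.6 CPM in Zfp622 KO morulae, all above the 3.28 to 4.54 CPM of WT morulae (log2 fold change 1.86, SE 0.186, 3.63-fold, adjusted p = 1.2e-05). Of all genes 14.9% had every Zfp622 KO library above every WT library, and 15.8% had every one below. Asns was at 55.7, 53.5, 43.9 and 59.7 CPM in Zfp622 KO morulae, all above the 32.5 to 38.0 CPM of WT morulae (log2 fold change 0.62, SE 0.139, adjusted p = 0.00355). Atf3 was at 44, 15, 14 and 35 counts in Zfp622 KO libraries, against 4, 2, 1 and 1 counts in WT libraries. Here each knockout library was above each WT library, with a log2 fold change of 3.90 (SE 0.931, adjusted p = 0.00756). Psat1 was at 1652.0, 1644.9, 1670.5 and 1451.2 CPM in Zfp622 KO morulae, all below the 1939.6 to 2090.7 CPM of WT morulae (log2 fold change -0.29, SE 0.0722, adjusted p = 0.00597). Without the WT libraries of a further index number Ddit4 alone of these was called (1.85, adjusted p = 0.00125), with Asns at 0.53 (adjusted p = 0.0698), Atf3 at 3.25 (adjusted p = 0.113) and Psat1 at -0.28 (adjusted p = 0.0663).

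Phgdh was at 288.2, 265.9, 387.7 and 221.0 CPM in Zfp622 KO morulae, against 351.5, 401.2, 591.7 and 453.5 CPM in WT morulae, and library 3 of the knockout overlapped WT. The log2 fold change of -0.61 (SE 0.204, adjusted p = 0.0429) was lost on leaving out WT library 2, 3 or 4 (-0.67, -0.49 and -0.63, with adjusted p = 0.0568, 0.0922 and 0.0745) and Zfp622 KO library 1, 2 or 4 (-0.63, -0.60 and -0.52, with adjusted p = 0.0743, 0.09 and 0.104). It was also lost without a filter on low counts (-0.64, adjusted p = 0.108), with only the groups compared in the fit (-0.60, adjusted p = 0.0574) and with all 24 libraries in it (-0.63, adjusted p = 0.052). Without the WT libraries of a further index number it was -0.38 (adjusted p = 0.282).

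Atf4 rested on 1 library in the Zfp622 KO. It was at 196.8, 203.9, 219.0 and 311.1 CPM, against 174.1, 179.6, 209.5 and 194.6 CPM in WT morulae. The log2 fold change of 0.31 did not pass (95% interval 0.06 to 0.55, adjusted p = 0.0561), and without knockout library 4 it was 0.12 (adjusted p = 0.276). It passed without knockout library 1 (0.36, adjusted p = 0.0291) and without knockout library 2 (0.34, adjusted p = 0.0476). Library 4 had the lowest Zfp622 level of the 4, 7.44 CPM against 20.5 to 24.2 CPM in the others, and the highest Cdkn1a level, 486.3 CPM against 296.2 to 354.8 CPM. The part of these differences in the Atf4 value was not tested.

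Trib3 was at 10.8, 10.3, 8.33 and 10.8 CPM in Zfp622 KO morulae, which overlapped the WT values of 9.17 to 11 CPM, with knockout library 3 below them (log2 fold change 0.00, 95% interval -0.31 to 0.30, adjusted p = 0.988). Ddit3 was at 8.60, 8.29, 5.23 and 10.0 CPM in Zfp622 KO morulae and had a log2 fold change of 0.20 that did not pass (95% interval -0.26 to 0.67, adjusted p = 0.522). Atf5 was at 11, 7, 9 and 8 counts, against 4, 4, 7 and 2 counts in WT libraries, and was not tested; without a filter its log2 fold change was 1.22 (adjusted p = 0.158). Chac1 was at 2 to 7 counts, against 3 to 7 counts in WT.

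**Figure D3:**
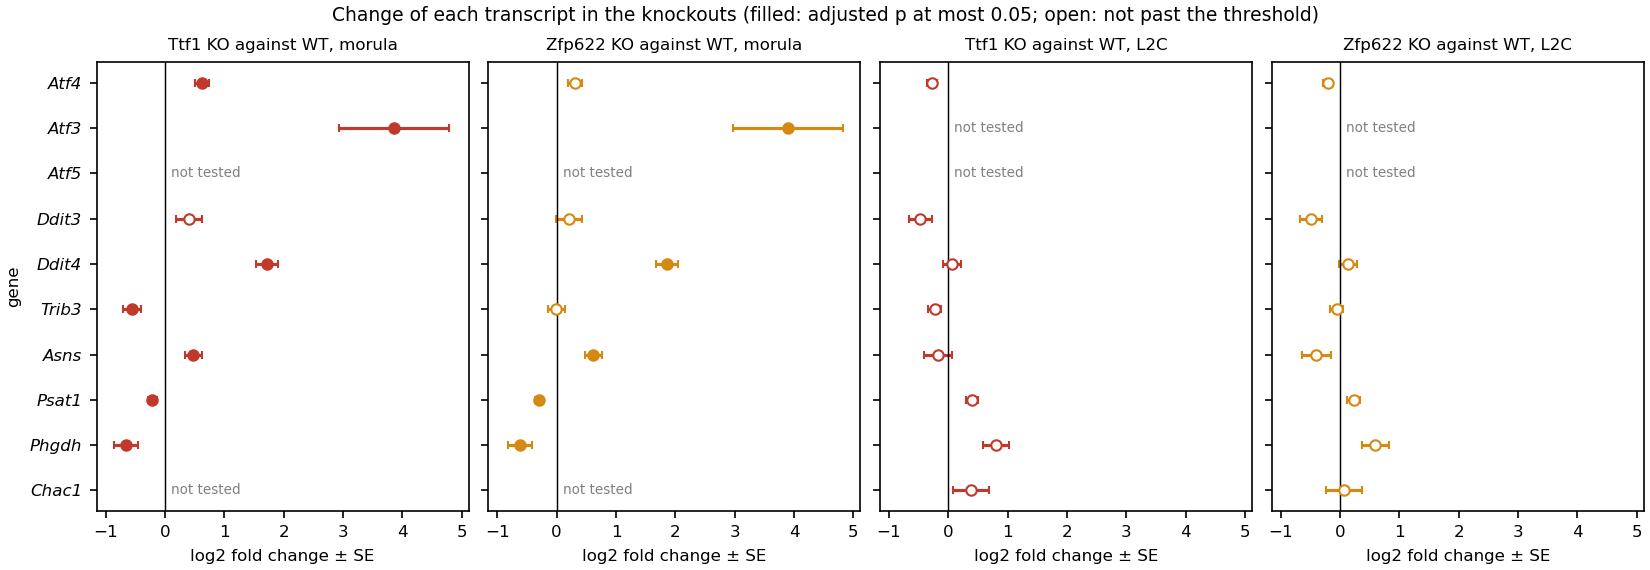
Log2 fold change of each member in each knockout over WT (points, with SE from the edgeR fit), at the morula and at L2C, filled where the adjusted p was at most 0.05. Ddit4 lies at 1.71 and 1.86 and Atf3 at 3.86 and 3.90 in the morula panels, and no point is filled at L2C.

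Set directly against each other, Ttf1 KO and Zfp622 KO morulae had no member called of the 8 tested, where 0.229% of 14865 genes were called; 2 members had an unadjusted p under 0.05 in edgeR and DESeq2 called 1. Trib3 was the member that came nearest. At 6.31 to 7.70 CPM in Ttf1 KO morulae every library lay below the 8.33 to 10.8 CPM of Zfp622 KO morulae, as for 2.58% of all genes. Its log2 fold change was -0.55 (95% interval -0.86 to -0.24, adjusted p = 0.124). It was the gene called by DESeq2, with an adjusted p of 0.0289. Atf4 differed by 0.32 (95% interval 0.08 to 0.57, adjusted p = 0.235), and by 0.49 without Zfp622 KO library 4 (adjusted p = 0.0107). The difference in Ddit4 was -0.15 (95% interval -0.51 to 0.22) and that in Asns was -0.14 (95% interval -0.43 to 0.15). For Atf3 it was -0.05 with a wide interval, -1.49 to 1.39.

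At L2C no member passed the test in any comparison. In Ttf1 KO against WT, 0 of 8 members were called by edgeR, where 1.54% of 16770 genes were called. Of the 8 members, 5 had an unadjusted p under 0.05, and DESeq2 called 2, Psat1 (0.40, adjusted p = 0.0292) and Phgdh (0.81, adjusted p = 0.00969). Phgdh was at 28.2, 43.1, 23.8 and 43.9 CPM in Ttf1 KO L2C embryos, against 20.9, 18.4, 20.3 and 19.6 CPM in WT L2C embryos, and Psat1 was at 361.0, 468.6, 406.6 and 380.5 CPM, against 280.4, 336.0, 303.3 and 306.2 CPM. Neither gene's libraries overlapped. Of all genes 4.96% had every Ttf1 KO L2C library above every WT L2C library, and 4.97% had every one below. Both log2 fold changes had the sign opposite to that at the morula. The edgeR adjusted p was 0.077 for Phgdh and 0.0656 for Psat1, and Phgdh passed without Ttf1 KO L2C library 3 (0.95, adjusted p = 0.0464). Atf4 was at 278.3, 270.6, 241.1 and 251.7 CPM in Ttf1 KO L2C embryos, all under the 284.6 to 340.4 CPM of WT L2C embryos, and its log2 fold change of -0.27 did not pass (95% interval -0.44 to -0.10, adjusted p = 0.0981).

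In Zfp622 KO against WT at L2C, 0 of 8 members were called by edgeR and 0 by DESeq2, with 4 at an unadjusted p under 0.05, where 0.0179% of genes were called. Phgdh was at 36.1, 23.3, 39.7 and 20.7 CPM in Zfp622 KO L2C embryos, which overlapped WT, with a log2 fold change of 0.60 (95% interval 0.13 to 1.07, adjusted p = 0.713). Atf4 was at 246.2, 293.1, 257.6 and 288.3 CPM in that knockout (log2 fold change -0.21, adjusted p = 0.713). Between Ttf1 KO and Zfp622 KO at L2C 0 of 8 members were called by edgeR and 0 by DESeq2, and 0 had an unadjusted p under 0.05, where 0.0358% of genes were called. Ddit4 in L2C embryos was at 8.85 to 11.6 CPM in Ttf1 KO, 9.88 to 12.6 CPM in Zfp622 KO and 9.29 to 11.5 CPM in WT, so the 3 genotypes overlapped. Atf3 and Atf5, at 1 to 11 counts in each L2C library, did not pass the filter there.

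The change of the knockout effect from L2C to the morula was tested in a fit of all 24 libraries, with positive values for an effect that is more positive in morulae. Atf5 did not pass the filter on low counts within either stage but did in this fit. Its means were 1.02 CPM in Ttf1 KO, 0.792 CPM in Zfp622 KO and 0.329 CPM in WT morulae, so the members tested depend in part on that filter. It was not called in this test (adjusted p = 0.109 in Ttf1 KO and 0.117 in Zfp622 KO). In the Ttf1 KO 6 of 10 members were called (4 higher, 2 lower), and 5 of the 9 other than Atf3, where 21.2% of 18864 genes were called. The difference was 1.64 for Ddit4 (SE 0.244, adjusted p = 2.81e-05), 0.89 for Atf4 (SE 0.150, adjusted p = 0.000114) and 3.85 for Atf3 (SE 1.05, adjusted p = 0.00904). Ddit3, at 0.87 (adjusted p = 0.0391), lost its call on leaving out any of WT L2C 3 and 4, WT morula 1, 2 and 3, Ttf1 KO L2C 2 and 3 and Ttf1 KO morula 1, 2 and 3, with values from 0.73 to 1.01 over the alternatives. Phgdh was at -1.48 (SE 0.334, adjusted p = 0.00343) and Psat1 at -0.62 (SE 0.133, adjusted p = 0.00125). Asns, at 0.64, did not pass (adjusted p = 0.0685), and passed without WT L2C library 1 (0.79, adjusted p = 0.0248), without Ttf1 KO L2C library 3 (0.80, adjusted p = 0.0275) or without Ttf1 KO morula library 3 (0.74, adjusted p = 0.0337). Without the WT libraries of a further index number Atf3, at 2.97, and Ddit3, at 0.97, were not called (adjusted p = 0.135 and 0.0851).

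In the Zfp622 KO 6 of 10 members were called as well (4 higher, 2 lower), and 5 of the 9 other than Atf3, where 10.7% of genes were called. Ddit4 was at 1.72 (SE 0.244, adjusted p = 4.83e-05), Asns at 1.00 (SE 0.252, adjusted p = 0.00997) and Atf3 at 4.24 (SE 1.06, adjusted p = 0.00974). Atf4, at 0.51 (SE 0.150, adjusted p = 0.0284), lost its call on leaving out any of WT L2C 1 and 4, WT morula 1 and 2, Zfp622 KO L2C 1 and 3 and Zfp622 KO morula 4, where its lowest value was 0.33. Psat1 was at -0.54 (adjusted p = 0.00925) and Phgdh at -1.23 (adjusted p = 0.023), and Phgdh lost its call without Zfp622 KO L2C library 3 (-1.07, adjusted p = 0.0538) and without Zfp622 KO morula library 4 (-1.12, adjusted p = 0.0543). Without the WT libraries of a further index number 1 member, Ddit4, was called in this test. Set beside the WT stages, mean levels in knockout morulae lay between those of WT morulae and WT L2C embryos for 4 of 10 members in each knockout, namely Atf4, Ddit3, Psat1 and Phgdh. The share of all genes that lay between the stages was not computed. Ddit4 averaged 12.7 ± 2.54 CPM in Ttf1 KO morulae and 14.0 ± 2.30 CPM in Zfp622 KO morulae, above both 3.89 ± 0.561 CPM in WT morulae and 10.2 ± 1.03 CPM in WT L2C embryos (SD, n = 4 each). Asns in knockout morulae, at 48.4 ± 10.6 CPM in Ttf1 KO and 53.2 ± 6.73 CPM in Zfp622 KO, was further from the 4.17 ± 0.990 CPM of WT L2C embryos than WT morulae were, at 34.9 ± 2.37 CPM.

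Upstream of ATF4, the kinase genes of eIF2 did not share a direction in Ttf1 KO morulae. Of 7 tested genes for these kinases and their sensors 2 were higher and 2 lower, 57.1% called beside 39.2% of all genes. Eif2ak1, the heme-regulated kinase HRI that also relays mitochondrial stress, averaged 33.1 ± 3.25 CPM in Ttf1 KO morulae and 19.3 ± 1.63 CPM in WT morulae (log2 fold change 0.79, adjusted p = 9.16e-05), and Eif2ak3, the kinase PERK of the endoplasmic reticulum, had a log2 fold change of 0.71 (adjusted p = 0.00365). Eif2ak4, the amino acid sensor GCN2, was at -1.08 (adjusted p = 0.00428), and Dele1, the mitochondrial messenger to HRI, was at -0.80 (adjusted p = 0.00319). In Zfp622 KO morulae Eif2ak1 was also higher at 33.2 ± 4.68 CPM (log2 fold change 0.79, adjusted p = 0.000176) and Dele1 lower (-0.71, adjusted p = 0.00964), 1 and 1 of 7, or 28.6% called beside 29.1% of all genes. Of 8 genes for eIF2 and its exchange factor eIF2B, 3 were lower in Ttf1 KO morulae (Eif2b1, Eif2b5 and Eif2b2) and 2 in Zfp622 KO morulae (Eif2b1 and Eif2b5), all by 0.51 or less on the log2 scale. These are 37.5% and 25% called, near the shares of all genes. The catalytic phosphatase subunit Ppp1ca was lower in both (-0.41 in Ttf1 KO, -0.19 in Zfp622 KO). Its stress-induced partner Ppp1r15a, or GADD34, was higher in Zfp622 KO morulae (0.33, adjusted p = 0.0394) and at 0.21 without passing in Ttf1 KO morulae (adjusted p = 0.147). Of 6 phosphatase genes 16.7% were called in Ttf1 KO and 33.3% in Zfp622 KO morulae, beside 39.2% and 29.1% of all genes. Of 6 partners and regulators of the ATF4 protein only Btrc, of the ligase that marks ATF4 for degradation, was called, at -0.40 in Ttf1 KO and -0.44 in Zfp622 KO morulae. That is 16.7% called in each knockout, below the shares of all genes.

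Among 11 other enzymes of amino acid synthesis, 3 were higher (Cth, Pycr1 and Cbs) and 2 lower (Shmt2 and Mthfd2) in each knockout. That is 45.5% called in each, beside 39.2% of all genes in Ttf1 KO and 29.1% in Zfp622 KO morulae. Cth, which makes cysteine, averaged 628.7 ± 78.2 CPM in Ttf1 KO morulae and 397.5 ± 18.5 CPM in WT morulae (log2 fold change 0.67, adjusted p = 2.19e-05). Shmt2, the mitochondrial enzyme that takes serine into one-carbon metabolism, averaged 15.4 ± 3.53 CPM in Ttf1 KO morulae, 19.9 ± 7 CPM in Zfp622 KO morulae and 44.4 ± 4.79 CPM in WT morulae. Mthfd2, the next mitochondrial enzyme, was at -0.66 in Ttf1 KO and -0.73 in Zfp622 KO. Of 6 transporters tested, 50% were called in Ttf1 KO and 33.3% in Zfp622 KO morulae, beside 39.2% and 29.1% of all genes. Slc7a5, the light chain of the leucine carrier, was higher (1.09 in Ttf1 KO, 0.92 in Zfp622 KO) and its heavy chain Slc3a2 lower (-0.45 and -0.39). Slc1a4 was higher in Ttf1 KO (1.58, adjusted p = 0.0457) and did not pass in Zfp622 KO (1.57, adjusted p = 0.0612). Its level was 0.335 ± 0.228 CPM in WT morulae and 1.01 ± 0.703 CPM in Ttf1 KO morulae, and it passed the filter on low counts through knockout libraries.

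The cytosolic aminoacyl-tRNA synthetases, many of which ATF4 is known to induce in mammalian cells under amino acid shortage, were lower. In Ttf1 KO morulae 20 of 20 were called lower, with a median log2 fold change of -0.48 and a range of -0.91 to -0.24. In Zfp622 KO morulae 16 of 20 were called lower, with a median of -0.38 and a range of -0.82 to -0.03. Of all genes 17.9% were lower in Ttf1 KO and 13.5% in Zfp622 KO morulae. Without the WT libraries of a further index number 14 and 11 were called lower. Sars averaged 93.9 ± 1.42 CPM in Ttf1 KO morulae, 109.7 ± 12.3 CPM in Zfp622 KO morulae and 177.2 ± 7.95 CPM in WT morulae (SD, n = 4 each). In WT embryos 19 of the 20 were higher in morulae than at L2C and 1, Iars, was lower, where 37.9% of all genes were higher and 46.1% lower; Sars had a log2 fold change of 3.76 there. At L2C 0 of 20 were called in either knockout against WT by edgeR, where 1.54% of all genes were called in Ttf1 KO and 0.0179% in Zfp622 KO.

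**Figure D4:**
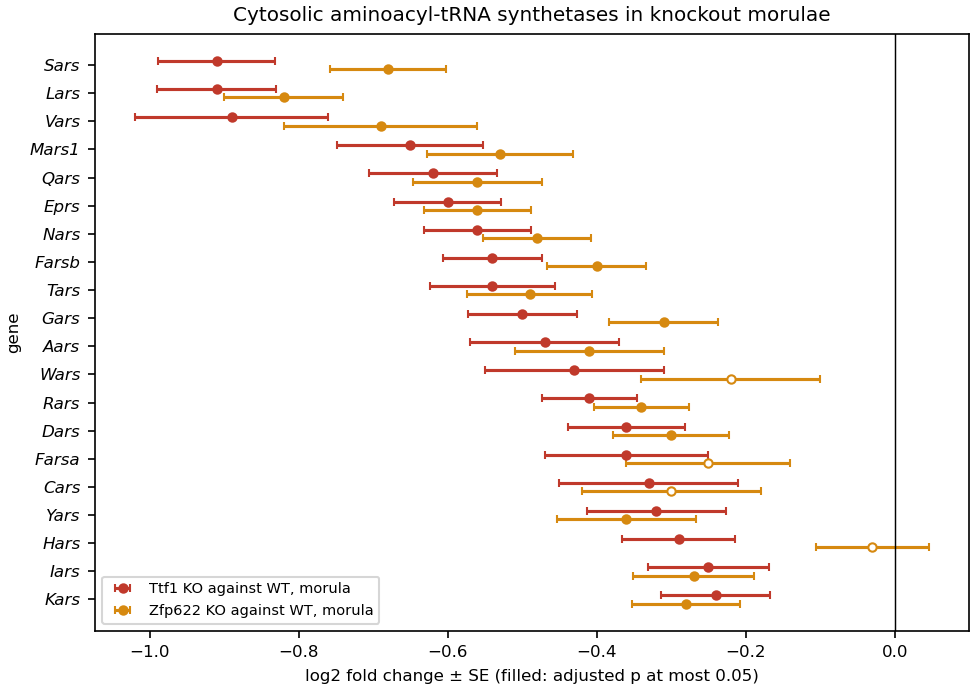
Log2 fold change of the 20 cytosolic aminoacyl-tRNA synthetase genes in Ttf1 KO and Zfp622 KO morulae over WT morulae (points, with SE from the edgeR fit), filled where the adjusted p was at most 0.05. All 40 points lie below 0, from -0.91 for Sars and Lars in Ttf1 KO to -0.03 for Hars in Zfp622 KO.

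Of 12 other stress effectors tested, 7 were higher and 2 lower in Ttf1 KO morulae, and 6 were higher and 1 lower in Zfp622 KO morulae. Gdf15, higher in each knockout, and Stc2, higher in Ttf1 KO, averaged 0.190 ± 0.141 and 0.475 ± 0.165 CPM in WT morulae. At those levels both passed the filter on low counts through knockout libraries, so the counts of higher genes depend in part on that filter. Of all genes 21.3% were higher and 17.9% lower in Ttf1 KO morulae, and 15.6% higher and 13.5% lower in Zfp622 KO morulae, and these shares also stand beside the lists that follow. Sesn2, a leucine-binding inhibitor of mTORC1, averaged 25.7 ± 3.47 CPM in Ttf1 KO morulae and 8.70 ± 0.452 CPM in WT morulae (log2 fold change 1.57, adjusted p = 5.76e-06), and the receptor gene Vldlr had a log2 fold change of 1.67 in Zfp622 KO morulae (adjusted p = 0.00304). Ndrg1 was higher at 1.44 (adjusted p = 0.000685) and the autophagy receptor Sqstm1 lower at -1.03 (adjusted p = 0.000397) in Ttf1 KO morulae. Sesn2 and Cdkn1a are also on the list of p53 targets, of which 10 of 10 were higher in each knockout, with medians of 2.02 in Ttf1 KO and 1.82 in Zfp622 KO morulae. Bbc3 of that list, at 0.581 ± 0.277 CPM in WT morulae, also passed the filter through knockout libraries. Ddit4, Atf3, Trib3 and Sesn2 are known to respond to p53 or to other stress inputs as well, and the part of p53 in their values was not tested. Of 14 genes of the other arms of the unfolded protein response and its chaperones, 8 were lower, 2 higher and 4 not called in Ttf1 KO morulae, and 7 were lower, 0 higher and 7 not called in Zfp622 KO morulae. Hspa5, the chaperone BiP, averaged 334.6 ± 85.3 CPM in Zfp622 KO morulae and 881.7 ± 290.7 CPM in WT morulae (log2 fold change -1.39, adjusted p = 0.0214), and Xbp1 was at -1.53 in Ttf1 KO morulae (adjusted p = 0.00365).

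**Figure D5:**
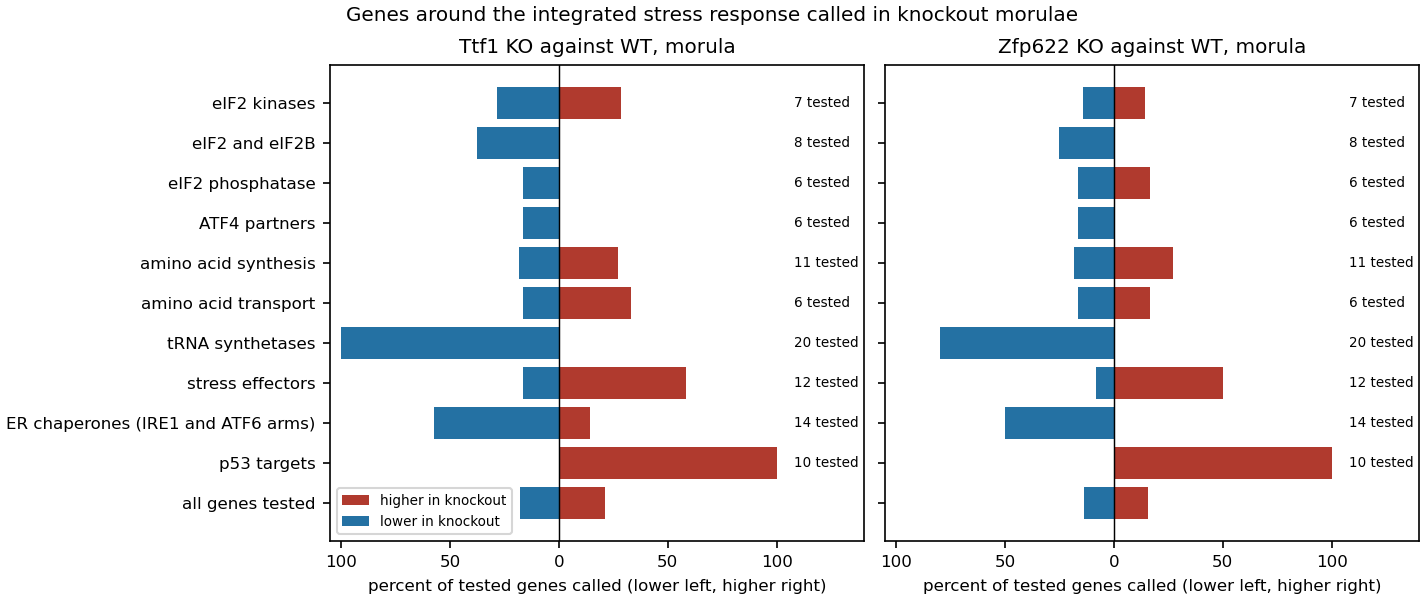
Percent of the tested genes of each list called higher (right) or lower (left) in Ttf1 KO and Zfp622 KO morulae over WT morulae, with all genes tested at the bottom. The tRNA synthetases lie wholly on the lower side (100% in Ttf1 KO, 80% in Zfp622 KO), and the p53 targets wholly on the higher side (100% in each).

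In L2C embryos few genes of the wider pathway were called, where 1.54% of all genes were called in Ttf1 KO and 0.0179% in Zfp622 KO. In the Ttf1 KO, Eif2s2, a subunit of eIF2, averaged 423.4 ± 43.1 CPM and 605.3 ± 84.4 CPM in WT (log2 fold change -0.52, adjusted p = 0.00888), Pycr1, of proline synthesis, had a log2 fold change of 1.11 (adjusted p = 0.0241), Manf -0.40 (adjusted p = 0.0283) and Creld2 0.45 (adjusted p = 0.0447), and no other gene of these lists was called. The called genes are 12.5% of those for eIF2 and eIF2B, 9.09% of those for amino acid synthesis and 14.3% of the unfolded protein response list. In the Zfp622 KO no gene of these lists was called by edgeR. Between the WT stages Adm2, which encodes a peptide hormone induced by ATF4, had 0 counts in the WT morula libraries and 15.3 ± 1.69 CPM in WT L2C libraries, at least 261-fold lower in WT morulae against a floor of 3 counts over the group. The cystine carrier Slc7a11 averaged 0.342 ± 0.217 CPM in WT morulae and 29.7 ± 3.69 CPM in WT L2C embryos, and Ppp1r15a fell by 2.82 on the log2 scale. Adm2 and Slc7a11 passed the filter on low counts through L2C libraries. The lists of these genes did not fall as a whole between the WT stages. Of 14 stress effectors 4 were higher and 5 lower, of 9 transporters 2 and 5, and of 6 phosphatase genes 3 and 3. Of all genes 37.9% were higher and 46.1% lower.

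Over the 24 libraries, the named genes whose log2 CPM followed Atf4 most closely were mt-Rnr1 (Pearson's r = 0.864), mt-Rnr2 (0.848), Fam227a (0.846), Ecm2 (0.834) and Epm2a (0.833), of 18863 genes. These are descriptions over libraries that share stage, depth and scaling. The share of counts on mitochondrial genes was 3.14% to 3.76% in Ttf1 KO morulae, 2.79% to 3.69% in Zfp622 KO morulae and 2.24% to 2.45% in WT morulae, and its part in the Atf4 values was not tested. Of the other 9 members Ddit3 ranked highest in likeness (r = 0.715, rank 321), followed by Ddit4 (r = 0.618, rank 1279), while Asns (-0.433), Psat1 (-0.565) and Phgdh (-0.590) ran against Atf4. Chac1, Atf3 and Atf5, at few counts in many libraries, were at 0.417, 0.239 and 0.198. Over the morula libraries alone r was 0.707 for Ddit4, 0.638 for Atf5, 0.600 for Ddit3 and 0.551 for Atf3. In the same libraries it was -0.269 for Chac1, -0.603 for Psat1 and -0.604 for Phgdh. There Asns was at 0.497, and Trib3, at 0.401 over the 24 libraries, was at -0.617. Markers of blood cells summed to 25.7 to 44.4 CPM in Ttf1 KO morulae, 32.1 to 45.4 CPM in Zfp622 KO morulae and 11.8 to 15.9 CPM in WT morulae. Of those 10 markers Cd68 and Hba-a1 made up most of the sum, and Ptprc was at 0.0198 CPM or less in each morula group.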

How the data were processed

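The deposited values are raw read counts per gene, and the authors made them with HISAT2 2.2.1 and featureCounts 2.0.1, per the submitters' processing notes and the file headers. Per the file headers, read pairs (150 bases per read, per the labels) were assigned to exons of Ensembl release 99 on GRCm38 without a strand option, and reads at several places or in several genes were not counted. Symbols were found for 55144 of 55471 identifiers, and 168 of 169 listed genes matched.

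Groups come from sample titles, since genotype labels of 7 Zfp622 libraries count upward. Counts were filtered (filterByExpr), scaled by TMM and tested with the quasi-likelihood test of edgeR 4.0.16 in R 4.3.3, over 12 libraries within a stage and over all 24 between stages. Calls are Benjamini-Hochberg adjusted p-values of at most 0.05 over all genes tested. Levels are CPM with TMM over 24 libraries, RPKM divides by exon length, and log2 CPM for likeness used a prior count of 2. Each library is a pool of embryos, so p-values reflect the variation between pools. The procedure was tested on simulated data. Within a stage, replicate numbers did not pair libraries of different genotypes: correlations of deviations ran from -0.164 to 0.086 over 24 pairs. Pairing between the stages was not examined.

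The members and the gene lists were chosen with earlier results of these data known. Named are all 10 members, both targets, up to 4 called genes with the smallest p of each other list and, for likeness, the 5 genes closest to Atf4 that have a proper name; a few further list members and Iars are named after their values were seen. Sequences are from RefSeq. Alternatives were DESeq2 1.42.0, its size factors, total counts, no filter, no robust fit, a replicate block, a minimum change of 1 on the log2 scale, each library left out, 3 wild-type libraries left out, and fits on other library sets.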

Additional observations from a re-analysis of the deposited data

Results flagged for a closer look

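Of 60 sets of 4 libraries (10 members in 6 groups), 4 held a library far from the other 3 by Dixon's criterion, which chance gives in about 1 of 20 sets. Psat1 was at 1482.5 CPM in Ttf1 KO morula library 1, against 1760.8, 1769.8 and 1779.4 CPM in the other libraries of the group. In Zfp622 KO morula library 4 it was at 1451.2 CPM, against 1644.9, 1652.0 and 1670.5 CPM in the others. In WT morula library 3 it was at 2090.7 CPM, against 1939.6, 1941.8 and 1958.5 CPM in the others. Ddit4 was at 8.85 CPM in Ttf1 KO L2C library 3, against 11.2, 11.2 and 11.6 CPM in the others.

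The knockout effect on a member differed between the stages by the interaction test of edgeR in 12 cases. In the Ttf1 KO the difference, morula minus L2C on the log2 scale, was 0.89 for Atf4, 3.85 for Atf3, 0.87 for Ddit3, 1.64 for Ddit4, -0.62 for Psat1 and -1.48 for Phgdh. In the Zfp622 KO it was 0.51 for Atf4, 4.24 for Atf3, 1.72 for Ddit4, 1.00 for Asns, -0.54 for Psat1 and -1.23 for Phgdh. Both sets use the same WT libraries.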

How the results depend on the processing

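Of 1526 values of single members under the alternatives, 1438 stayed on their side of the threshold, 29 uncalled ones changed sign, 66 lost a call, 22 gained one and 0 called values changed sign. Counts of members called that changed by over 1.5 times were these. Ttf1 KO against WT at L2C gave 2 under DESeq2, 2 without a filter, 2 with only the groups compared and 1 with all 24 libraries, against 0. Zfp622 KO against WT at L2C gave 1 without a filter, against 0. With a minimum change of 1 on the log2 scale, morulae gave 2 in the Ttf1 KO and 2 in the Zfp622 KO, the Ttf1 KO interaction gave 3, and 0 tRNA synthetases were lower in either. Without the 3 WT libraries of a further index number, morulae gave 3 in the Ttf1 KO and 1 in the Zfp622 KO, and the Zfp622 KO interaction gave 1; this leaves 2 WT morula libraries. Ttf1 KO against Zfp622 KO morulae gave 1 under DESeq2 and 1 without a filter, against 0. The cause was not tested.

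With each library left out in turn, the members called ran from 0 to 1 (Ttf1 KO, L2C), 0 to 0 (Zfp622 KO, L2C), 5 to 8 (Ttf1 KO, morula), 4 to 5 (Zfp622 KO, morula), 0 to 0 and 0 to 1 (Ttf1 KO against Zfp622 KO, L2C and morula), 8 to 8 (WT stages), 5 to 7 (Ttf1 KO interaction) and 4 to 6 (Zfp622 KO interaction). The tRNA synthetases lower ran from 18 to 20 in Ttf1 KO and 16 to 17 in Zfp622 KO morulae; their alternatives were chosen after seeing the data. The replicate block gave 7 members called in Ttf1 KO and 5 in Zfp622 KO morulae, 0 in the other knockout comparisons within a stage, 8 between WT stages and 6 in each interaction, the main counts. Depth limits Atf3, Atf5 and Chac1, at few counts in many libraries.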
